A study of Rattus norvegicus with 9 samples.

Results

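Livers of 3 rats with carbon tetrachloride (CCl4) fibrosis, the model group, were compared with livers of 3 normal control rats, by RNA sequencing of whole liver. These are 6 of the 9 livers sequenced, taken by their library labels, and the other 3 came from rats given tormentic acid after CCl4. All rats were male Sprague-Dawley rats. The model rats received 2 ml/kg of CCl4 as a 50% solution in oil, 2 times a week for 9 weeks, and were killed after a follow-up of 6 weeks. What they received in that follow-up is not given in the sources used here, and the labels call their tissue a hepatitis stage liver. The normal control rats were given saline in place of CCl4, and every rat was fasted for 12 h before the liver was taken. The labels number the livers of a group as replicates, so that each p-value measures the spread between these samples. Of the 16938 genes listed, 12730 passed the filter on low counts and were tested, and a gene rose or fell where its adjusted p was under 0.05.

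CCl4 is turned into a toxic radical inside hepatocytes, and repeated doses kill those around the central veins. Scarring follows when hepatic stellate cells, the vitamin A stores of the liver, become myofibroblasts that secrete collagen, while macrophages recruited from the blood clear debris and shape the scar. Cells of the bile ducts can spread beyond the portal tracts at the same time, which is known as a ductular reaction. Hepatocytes make most plasma proteins and carry out the synthesis of urea, glucose and bile acids, so that their genes fill most of a liver library. In bulk RNA, fewer cells of a type and less RNA per cell cannot be told apart.

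Reads counted in a liver ranged from 13156735 to 18090405. The first model rat, M1 for short, stood apart from the other 5 livers. Its 50 most counted genes held 27.9% of its reads, against 42.8% to 45.7% elsewhere, and its median distance from the normal mean over the genes tested was 0.83 on the log2 scale, against 0.49 and 0.37 in the second and the third model rat. The normal rats were at 0.28, 0.31 and 0.42 from the mean of the other normal rats, a range that includes the value of the third model rat. The biological coefficient of variation, the spread between rats of a group beyond counting error, was 0.297 among the normal rats and 0.458 among the model rats, or 0.296 with that rat left out. Leaving out M1 moved the fold change of 320 of the 1002 called genes by more than 1.5-fold, and the log2 fold change without it is given beside the fitted one of a named gene where it did so or where it ended the call. Genes of few counts are given by their counts instead. Levels below are CPM, read counts scaled to a common library size by the TMM method, which sets the median difference over all genes tested to 0.02 on the log2 scale. Scaling by library totals moves that median to 0.65, so that a difference given here is one relative to the other genes of the liver. Whether groups overlap is likewise stated for CPM after TMM scaling, unless shares of all reads are named.

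The tissue label held in all 6 livers: Alb, albumin, ranked 1, 1 and 2 by FPKM, the length-scaled values of the authors, in the normal rats and 3, 4 and 1 in the model rats. Marker genes of other cells moved with the groups. All 7 cholangiocyte markers tested, 6 of 9 myofibroblast markers, 3 of 5 mast cell markers and 3 of 4 neutrophil markers rose, beside 6.86% of all genes tested. Summed CPM of the myofibroblast markers were 412, 295 and 261 in the normal rats and 12832, 1329 and 1525 in the model rats. Those of the neutrophil markers were 25.4, 11 and 16.4 in the normal rats and 95.5, 37.4 and 64 in the model rats. Neither sum had groups that overlapped, in CPM or as shares of all reads. Stellate cell markers, with 1 that rose and 1 that fell among 9, summed to 539.6, 433 and 392 CPM in the normal rats and 344, 172 and 292 in the model rats, lower in every model rat after TMM scaling. As shares of all reads they took 0.0441%, 0.036% and 0.031% in the normal rats and 0.0561%, 0.0192% and 0.0297% in the model rats, so that M1 was then the highest of the 6 livers.

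Sums of macrophage, endothelial, T cell and plasma cell markers overlapped between the groups in CPM, although as shares of all reads those of T cell and plasma cell markers were higher in every model rat. Macrophage markers summed to 738, 551 and 629 CPM in the normal rats and 1450.0, 527 and 576 in the model rats, so that the first model rat alone was above the normal range. In CPM, B cell markers were lowest of all livers in the first model rat and highest in the other model rats, at 5.23, 3.92 and 6.77 against 2.7, 12.5 and 11.2. As shares of all reads they took 0.000428%, 0.000326% and 0.000534% in the normal rats and 0.00044%, 0.0014% and 0.00114% in the model rats. By that measure the first model rat lay inside the normal range. edgeR called 0 markers in these 5 lists. At an unadjusted p under 0.05, 3 macrophage and 3 endothelial markers were higher and 1 macrophage, 1 endothelial and 1 plasma cell marker lower, while DESeq2 called 1 and 2 up and 1 and 1 down, and limma voom called 0 macrophage and 2 endothelial markers up and 4 and 3 down, besides 1 B cell and 1 plasma cell marker up and 1 plasma cell marker down. The part of these cell types in the results below was not tested.

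**Figure D1:**
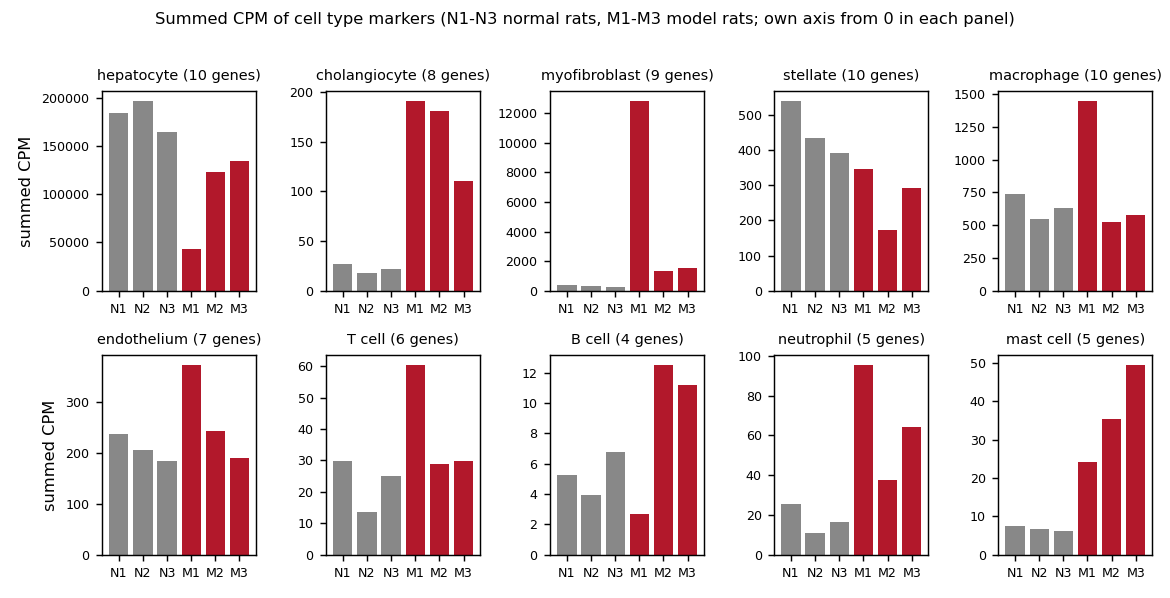
Summed CPM of the marker genes of 10 cell types in each liver, in grey for the normal rats (N1 to N3) and in red for the model rats (M1 to M3), with an own axis from 0 in each panel. Cholangiocyte and mast cell sums are higher in all model rats than in all normal rats, whereas the macrophage sum is above the normal range in the first model rat alone, at 1450 CPM.

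In the model livers genes of scar matrix, scar-associated macrophages, bile ducts and granulocytes rose, and most lists of hepatocyte function had a median below 0 with few members that passed the test in edgeR. In Model VS Normal, 873 genes rose and 129 fell, which is 6.86% and 1.01% of the genes tested. The median log2 fold change was 2.97 among the genes that rose, where 423 were beyond 3, and -1.62 among those that fell. All 3 model rats lay above all 3 normal rats for 2664 genes tested (20.9%) and below them for 2203 (17.3%), called or not. By shares of all reads in place of TMM, 5479 genes (43%) lay above and 606 (4.76%) below, and all 606 were among the 2203. Changes were graded between the model rats. Of the 873 genes that rose, 661 peaked in the first model rat, 156 in the second and 56 in the last, and 601 were lowest in the third. Of the 129 that fell, 95 were lowest in the first model rat and 97 were highest in the third.

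All 873 genes that rose and all 129 that fell, including those named below, had groups without overlap in CPM. Leaving out 1 rat could therefore hardly change a sign, and all 1002 calls kept theirs without the first model rat. Without that rat 659 of the genes that rose and 86 of those that fell still passed. In all, 741 genes rose and 147 fell without it, which is 5.75% and 1.14% of the 12884 genes then tested. Fewer genes were called without a normal rat than without a model rat, and the cause was not tested. Without the first normal rat 51 genes were called, and without the second or the third edgeR called 0 genes at an adjusted p under 0.05, although 2727 and 3119 genes had an unadjusted p under 0.05. Without the second or the third model rat 589 and 2537 genes were called. With all 6 livers DESeq2 called 1910 genes up and 804 down, and limma voom 1972 up and 1461 down. With library totals in place of TMM, 1918 genes rose and 62 fell.

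**Figure D2:**
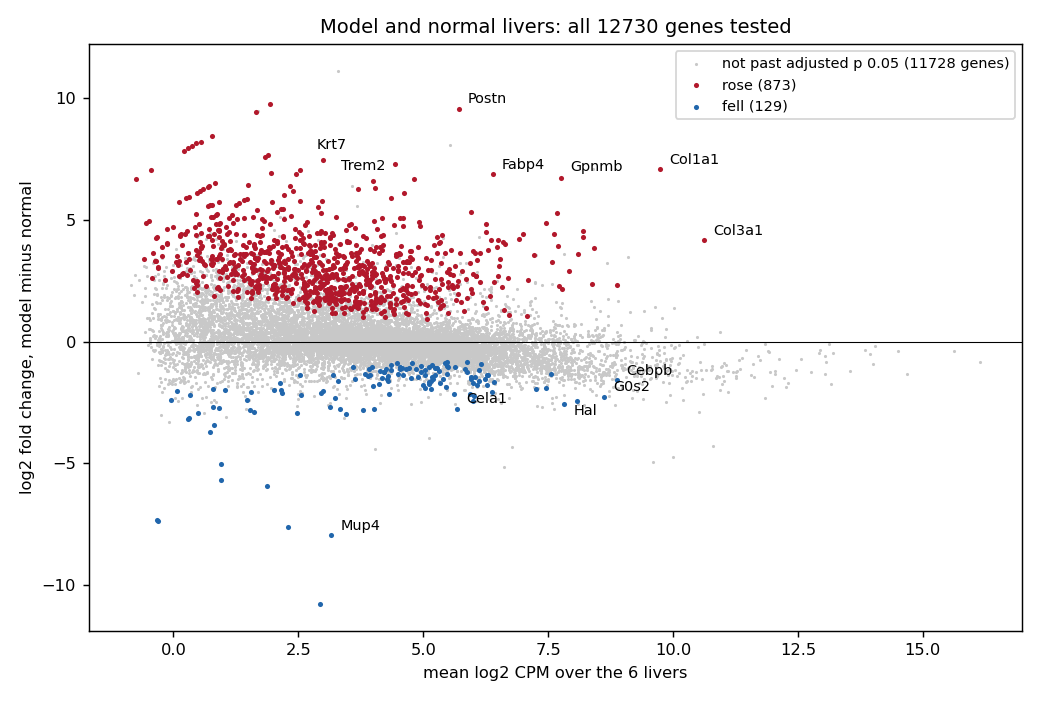
Log2 fold change of the model over the normal group (vertical axis) against the mean log2 CPM over the 6 livers (horizontal axis) for the 12730 genes tested, 1 point a gene, in red where the gene rose, in blue where it fell and in grey otherwise. The 873 red points outnumber the 129 blue ones, and their median of 2.97 lies further from 0 than that of -1.62.

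**Figure D3:**
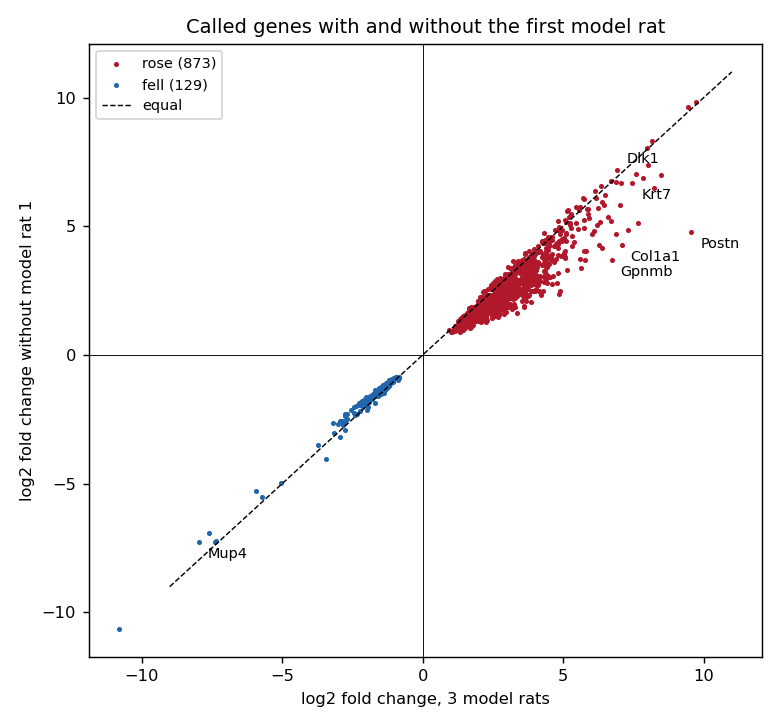
Log2 fold change with all 3 model rats (horizontal axis) against that without the first model rat (vertical axis) for the 1002 genes called, in red where they rose and in blue where they fell, with a dashed line of equal values. Every point keeps its sign, which was likely in advance because the groups of every called gene do not overlap in CPM. Of the 6 genes named in the plot, Postn, Gpnmb and Col1a1 lie furthest under the line. They are at 4.78, 3.71 and 4.27 without that rat against 9.56, 6.72 and 7.08 with it.

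Promoters of 4 genes are shown because these genes had some of the largest changes and because the windows hold the sequence elements searched for. RefSeq windows on assembly GRCr8 run from 250 bases before to 50 after the annotated start. Capitals mark TATAAA, the TATA box, TGANTCA, and CACGTG, the E-box core, on either strand. The pattern TGANTCA covers the recognition sequences of the AP-1 factors but, as N is any base, not these alone. The window of Mmp12, the elastase of macrophages, lies at chr8:12866402-12866701, plus strand. That of Gpnmb, a glycoprotein of lipid-laden macrophages, lies at chr4:79340878-79341177, plus strand, and that of Trem2, a lipid-sensing receptor of such cells, at chr9:20151730-20152029, minus strand. The window of Mup4, a lipocalin of the major urinary protein family, lies at chr5:79759447-79759746, minus strand.
Mmp12: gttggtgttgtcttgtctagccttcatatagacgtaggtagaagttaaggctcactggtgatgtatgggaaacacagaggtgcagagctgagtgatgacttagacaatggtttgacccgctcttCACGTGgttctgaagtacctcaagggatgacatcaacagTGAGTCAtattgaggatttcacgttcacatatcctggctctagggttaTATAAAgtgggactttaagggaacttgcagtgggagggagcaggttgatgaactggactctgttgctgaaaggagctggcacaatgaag
Gpnmb: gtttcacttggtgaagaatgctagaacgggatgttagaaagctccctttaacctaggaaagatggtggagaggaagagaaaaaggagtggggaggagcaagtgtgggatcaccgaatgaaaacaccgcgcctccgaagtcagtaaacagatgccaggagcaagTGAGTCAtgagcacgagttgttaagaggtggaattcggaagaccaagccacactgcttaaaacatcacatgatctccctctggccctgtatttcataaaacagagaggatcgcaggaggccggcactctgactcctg
Trem2: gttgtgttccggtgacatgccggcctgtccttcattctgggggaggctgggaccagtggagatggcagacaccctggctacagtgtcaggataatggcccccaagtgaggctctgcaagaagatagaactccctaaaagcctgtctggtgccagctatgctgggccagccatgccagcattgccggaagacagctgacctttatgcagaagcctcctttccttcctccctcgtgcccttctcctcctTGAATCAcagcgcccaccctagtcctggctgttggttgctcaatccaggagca
Mup4: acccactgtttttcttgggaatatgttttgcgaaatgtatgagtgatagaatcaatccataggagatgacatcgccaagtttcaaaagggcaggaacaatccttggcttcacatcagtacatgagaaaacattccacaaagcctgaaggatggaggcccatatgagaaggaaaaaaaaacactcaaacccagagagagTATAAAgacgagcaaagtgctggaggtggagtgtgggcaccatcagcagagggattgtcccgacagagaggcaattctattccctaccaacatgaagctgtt

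Mmp12 holds all 3 elements, Gpnmb and Trem2 hold TGANTCA, as TGAGTCA and TGAATCA, and Mup4 holds TATAAA. A promoter window was found for 615 of the 873 genes that rose, 95 of the 129 that fell and 9555 of all genes tested. TGANTCA was present in 8.29% of the windows of genes that rose, 4.21% of those that fell and 4.97% of those tested. TATAAA was present in 9.11%, 11.6% and 7.01%, and CACGTG in 6.5%, 11.6% and 9.2%. Among the other elements searched on both strands, CCAAT, the CCAAT box, was found in 34.8%, 33.7% and 38.1% of the windows. GAGGAAGT, a sequence of the myeloid factor PU.1, was found in 2.76%, 0% and 2.64%, and TTTGGCGC, bound by the E2F factors of the cell cycle, in 0.65%, 1.05% and 0.869%. The consensus element of the hepatocyte factor HNF1 was found in 0%, 0% and 0.283%. These shares describe letters in a window and were not tested.

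The 12 largest rises among genes at a mean log2 CPM of at least 3 held scar genes, macrophage genes and a bile duct gene. Postn encodes periostin, a matrix protein secreted by activated fibroblasts. It was at 0.172, 0.199 and 0 CPM in the normal rats and at 305, 4.36 and 3.37 in the model rats (log2 fold change 9.56 ± 2.30, adjusted p = 0.0459). The groups did not overlap, and the first model rat was far above the others. Without it the log2 fold change of Postn was 4.78 (adjusted p = 0.0126). Col1a1, the main chain of type I collagen, went from 18.8, 11.3 and 7.55 CPM to 4609.9, 239 and 251 (log2 fold change 7.08 ± 1.43, adjusted p = 0.0309). Among all genes it ranked 7728, 9009 and 9820 by FPKM in the normal rats and 59, 1387 and 1413 in the model rats. Its levels in the second and the third model rat were close to each other, and without the first the log2 fold change was 4.27 (adjusted p = 0.00225).

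Matrix and adhesion genes made up several of the others. Fblim1, a linker at the sites where cells grip the matrix, was at 0.515, 0.465 and 0.607 CPM against 125, 23.4 and 16.3 (log2 fold change 6.69, or 5.20 without M1, adjusted p = 0.012). Fndc1, a fibronectin domain protein, was at 0.429, 0.465 and 0.26 CPM against 65.8, 19.1 and 10.3 (log2 fold change 6.32, or 5.18 without M1, adjusted p = 0.0116). Sfrp1, a secreted inhibitor of Wnt signals, was at 1.54, 0.399 and 0.0868 CPM against 57.6, 40.4 and 20.6 (log2 fold change 5.88, adjusted p = 0.0116). For these genes the groups did not overlap, and the first model rat was the highest each time. Svep1, a large adhesion protein of vessels and stroma, had a log2 fold change of 4.81 (adjusted p = 0.0086). Aoc1, the enzyme that breaks down histamine, went from 0.429, 0.399 and 0.0868 CPM to 65.9, 17.1 and 9.88 (log2 fold change 6.60, or 5.37 without M1, adjusted p = 0.012). Aplnr, the receptor of the vascular peptide apelin, was at 0.601, 0.332 and 0 CPM in the normal rats and at 62.3, 11.6 and 1.17 in the model rats (log2 fold change 6.29, or 4.29 without M1, adjusted p = 0.0454). Without the first model rat Aplnr did not pass (adjusted p = 0.0582).

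The 6 smallest p-values among these higher expressed genes that rose belonged to genes whose levels in the model rats lay close together. Ltbp1 encodes a matrix protein that holds latent TGF-beta. It was at 11.4, 9.77 and 9.46 CPM in the normal rats and at 77.3, 80.9 and 83.1 in the model rats (log2 fold change 2.98 ± 0.22, adjusted p = 0.00742). Fhl2, a LIM domain cofactor of muscle and fibroblast genes, was at 2.66, 3.06 and 4.34 CPM against 41.7, 48.4 and 35.9 (log2 fold change 3.65, adjusted p = 0.00742). Itga8, the integrin chain of contractile fibroblasts, was at 1.63, 2.19 and 1.3 CPM against 68.8, 38.5 and 31.4 (log2 fold change 4.74, adjusted p = 0.00742). In Ltbp1 and Fhl2 the first model rat was not the highest of the model group. Bicc1, an RNA-binding protein of duct epithelium, rose from 4.72, 2.59 and 3.12 CPM to 52.4, 37.9 and 34 (log2 fold change 3.58, adjusted p = 0.00742). Scara5, a ferritin receptor of fibroblasts, was at 1.37, 0.93 and 1.13 CPM in the normal and 19.2, 12.7 and 23.7 in the model rats (log2 fold change 4.02, adjusted p = 0.00742). Cxcl16, a membrane-bound chemokine, was at 8.24, 5.18 and 7.29 CPM against 55.7, 52.1 and 41.8 (log2 fold change 2.85, adjusted p = 0.00742). For these 6 genes the log2 fold change without the first model rat lay between 2.75 for Cxcl16 and 4.31 for Itga8, and each still passed.

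**Figure D4:**
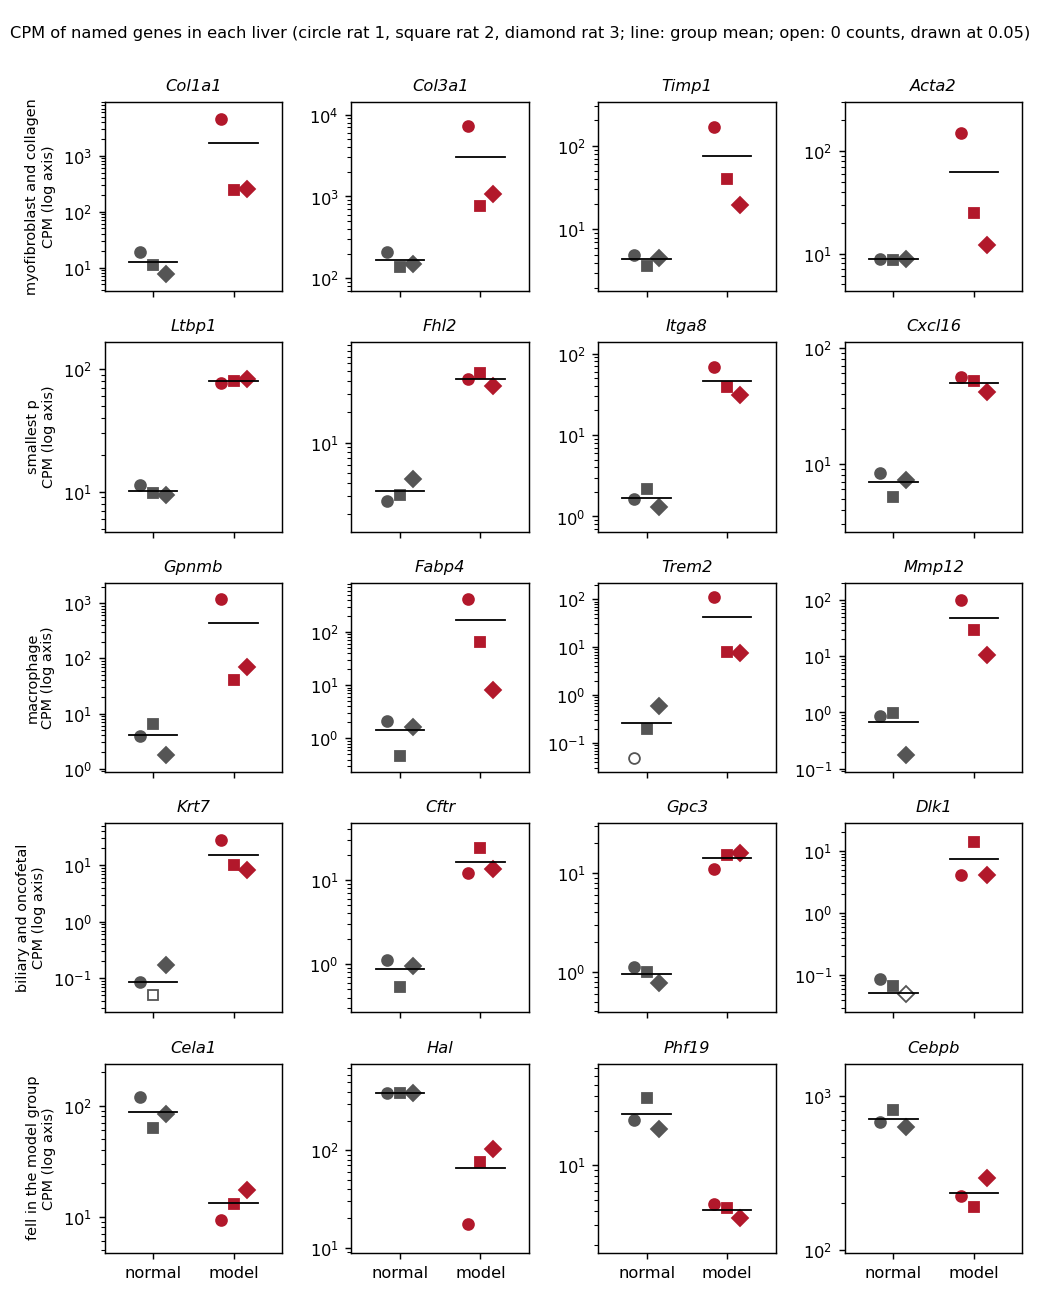
CPM on a log axis of 20 named genes in each normal (grey) and model (red) liver, with the group mean as a line, circle, square and diamond for the first, the second and the third rat of a group, and open symbols at 0.05 for livers with 0 counts. For Col1a1, Gpnmb and Fabp4 the first model rat is far above the other model rats, while the model rats of Ltbp1, Fhl2 and Cxcl16 lie close together.

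Falls were fewer and had a smaller median. Cela1, an elastase, was at 120.0, 62.4 and 83.3 CPM in the normal rats and at 9.41, 12.9 and 17.2 in the model rats (log2 fold change -2.75 ± 0.35, adjusted p = 0.0104). Phf19, a subunit of the Polycomb repressor complex, was at 24.8, 38.5 and 20.7 CPM against 4.61, 4.22 and 3.44 (log2 fold change -2.77, adjusted p = 0.00899). Hal, the first enzyme of histidine breakdown, was at 390.0, 386 and 387 CPM in the normal rats and at 17.6, 76.6 and 103 in the model rats (log2 fold change -2.56, adjusted p = 0.0426). All 3 model rats lay below all normal rats for each of these genes, and Hal was nearly constant in the normal rats. Fn3k, which repairs sugar-damaged proteins, went from 17.2, 15 and 13 CPM to 1.58, 1.5 and 4.02 (log2 fold change -2.68, adjusted p = 0.0178). G0s2, an inhibitor of the lipase that opens fat droplets, went from 679.5, 658 and 611 CPM to 63.8, 98.4 and 244 (log2 fold change -2.26, adjusted p = 0.0438). Hsd17b2, which inactivates estradiol and testosterone, went from 447, 225 and 695 CPM to 57.2, 78.3 and 116 (log2 fold change -2.44, adjusted p = 0.0319). The third model rat was the nearest to the normal rats in Cela1, Hal, Fn3k, G0s2 and Hsd17b2, but the lowest in Phf19. Beside Mup4 and Cyp2f4, described below, the other large falls were those of Mtmr7, a lipid phosphatase (-2.99 on the log2 scale), Scnn1a, a sodium channel chain (-2.82), Abcc8, the sulfonylurea receptor (-2.76), and RGD1310209 (-2.33).

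Collagen genes of every class were among those that rose. Of the fibrillar collagen list, 3 of 8 tested members rose, with a median log2 fold change of 3.70 (1.94 without the first model rat), beside 0.02 over all genes tested. Col3a1, the chain of type III collagen, was at 212, 139 and 148 CPM in the normal rats and at 7162, 769.8 and 1058 in the model rats (log2 fold change 4.17 ± 0.97, or 2.44 without M1, adjusted p = 0.042). It took 1.17%, 0.0859% and 0.108% of all reads in the model rats, against 0.0173%, 0.0116% and 0.0117% in the normal rats. Col11a1, a minor fibril chain, had 1 count over the normal livers and 364 over the model livers, a ratio of 279 with a 95% counting interval from 49.7 to 11000 (adjusted p = 0.0104). Of the network collagens, which build basement membranes, 4 of 8 rose. Col4a1 was at 40.1, 27.3 and 17.9 CPM against 1343, 187 and 136 (log2 fold change 4.29, or 2.49 without M1, adjusted p = 0.0394), far the highest in the first model rat. Among other collagens 5 of 13 rose. Col6a3, a chain of the beaded microfibrils, was at 15.9, 8.9 and 9.63 CPM against 574, 69.8 and 91 (log2 fold change 4.42, or 2.79 without M1, adjusted p = 0.0294). Col18a1, the source of endostatin and the most counted member of that list, did not pass (log2 fold change -0.31, adjusted p = 0.65).

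Enzymes that modify collagen changed in part. Of 23 tested, 6 rose, and the median was 1.20, or 0.35 without the first model rat. Loxl1, a lysyl oxidase that crosslinks elastin and collagen, was at 3.69, 2.19 and 3.21 CPM in the normal and 247, 64.7 and 50.9 in the model rats (log2 fold change 5.32 ± 0.70, or 4.24 without M1, adjusted p = 0.0116). Plod2, which hydroxylates collagen lysines ahead of crosslinking, was at 2.4, 1.06 and 2.34 CPM against 118, 31.9 and 23.9 (log2 fold change 4.91, or 3.85 without M1, adjusted p = 0.0135). Fkbp10, a collagen chaperone, was at 1.89, 1.13 and 0.868 CPM against 77.5, 7.69 and 10.2 (log2 fold change 4.62, or 2.76 without M1, adjusted p = 0.0345). In each the lowest model rat was several times above the highest normal rat.

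Matrix glycoproteins were the list with the most calls. Of 38 members tested, 24 rose and 1 fell, with and without the first model rat. Eln, elastin, was at 12.8, 7.71 and 12.1 CPM in the normal rats and at 318, 126 and 105 in the model rats (log2 fold change 4.08 ± 0.51, or 3.40 without M1, adjusted p = 0.0104). Fn1, fibronectin, which hepatocytes also secrete, was the most counted member at 1457, 1076 and 852 CPM against 897, 1022 and 899.6. Its groups overlapped. Ecm1, which keeps TGF-beta latent in healthy liver, fell from 313, 262 and 257 CPM to 60.9, 44.2 and 116 (log2 fold change -1.91 ± 0.41, adjusted p = 0.0337). Tnc, tenascin C, named here after its values were seen, did not pass the filter on low counts. Its counts were 2, 0 and 1 in the normal rats and 1183, 5 and 14 in the model rats, so that nearly all of them came from the first model rat.

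Among proteoglycans 4 of 16 rose, and among matrix proteases and their inhibitors 11 of 21. edgeR called 0 members of either list down, and at an unadjusted p under 0.05 1 proteoglycan and 0 of the proteases and inhibitors were lower. DESeq2 called 0 of either list down, whereas limma voom called 3 proteoglycans down. In 3 of the 16 proteoglycans every model rat lay below every normal rat, a share near the 17.3% of all genes tested. Dcn, decorin, which coats collagen fibrils, went from 5.92, 10.2 and 9.8 CPM to 363, 43.4 and 55.9 (log2 fold change 4.16, or 2.50 without M1, adjusted p = 0.0324). Bgn, its relative biglycan, went from 189, 131 and 149 CPM to 1367, 517 and 466 (log2 fold change 2.32, or 1.63 without M1, adjusted p = 0.0394). Both proteases and inhibitors were among the genes that rose. Mmp12 was at 0.858, 0.996 and 0.174 CPM in the normal and 103, 29.5 and 10.8 in the model rats (log2 fold change 6.09 ± 0.98, or 4.82 without M1, adjusted p = 0.0163). Timp1, the inhibitor of matrix proteases, was at 4.98, 3.65 and 4.6 CPM against 167, 40.2 and 19.8 (log2 fold change 4.10 ± 0.78, or 2.75 without M1, adjusted p = 0.0265). Plat, which activates plasmin, was at 4.38, 3.92 and 3.21 CPM against 162, 49.5 and 25.1 (log2 fold change 4.36, or 3.26 without M1, adjusted p = 0.0159). In these genes the order of the model rats was that of their distance from the normal livers. Adamtsl2, a microfibril protein, differed from them in that order, with the third model rat the highest, at 30.5, 19.7 and 18.7 CPM in the normal and 241, 257 and 319.8 in the model rats (log2 fold change 3.57, adjusted p = 0.00742).

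Growth factor genes of the TGF-beta and PDGF families, which drive stellate cells into myofibroblasts, moved in part. Of 24 tested, 8 rose and 0 fell in edgeR, with a median of 0.78. DESeq2 called 10 up and 1 down, and limma voom 12 up and 3 down. Tgfb3 went from 2.23, 2.99 and 2.08 CPM to 56.9, 19.4 and 24 (log2 fold change 3.77, or 3.12 without M1, adjusted p = 0.0104). Pdgfd, a ligand of the PDGF receptors, went from 1.63, 0.996 and 0.347 CPM to 16.9, 16.5 and 10.7 (log2 fold change 3.88, adjusted p = 0.0119). Fst, the activin antagonist follistatin, went from 0, 0.133 and 0.26 CPM to 11.5, 3 and 3 (log2 fold change 5.39, or 4.40 without M1, adjusted p = 0.0215). Tgfb1 itself did not pass in edgeR, although its groups did not overlap, at 23.6, 13.8 and 12.5 CPM against 145, 41.7 and 36.3 (adjusted p = 0.0572). Inhbe, the liver activin chain E, was at 343, 329.6 and 338 CPM in the normal rats and at 15.4, 87.2 and 104 in the model rats. It missed the threshold with all 6 livers (log2 fold change -2.29, adjusted p = 0.0638) and passed without the first model rat (adjusted p = 0.00748).

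Contractile genes of myofibroblasts gave 6 calls among 18 tested, all upward, with a median of 1.78 (1.05 without the first model rat). Acta2, smooth muscle actin and the usual mark of activated stellate cells, was at 8.92, 8.57 and 8.94 CPM in the normal rats and at 152, 25.2 and 12 in the model rats. The third model rat was close to the normal rats, and the gene did not pass (log2 fold change 2.84 ± 0.85, adjusted p = 0.0777). Without M1 its log2 fold change was 1.06 (adjusted p = 0.0979). Acta2 did pass by library totals (adjusted p = 0.0423), with all 9 livers in the edgeR fit (0.0452), in DESeq2 (0.00393) and in limma voom (0.0423), and over all alternatives its adjusted p ranged from 0.00393 to 0.223. Vim, the intermediate filament vimentin, went from 64, 34.7 and 34.5 CPM to 1552, 238 and 141 (log2 fold change 3.86, or 2.08 without M1, adjusted p = 0.0468). Des, the muscle filament desmin of stellate cells, went from 4.29, 2.13 and 3.56 CPM to 95.1, 11.4 and 13.2 (log2 fold change 3.59, or 1.88 without M1, adjusted p = 0.0462). Tagln, an actin-binding protein of smooth muscle, went from 12.4, 9.83 and 16.5 CPM to 207, 52.2 and 27.1 (log2 fold change 2.89, or 1.61 without M1, adjusted p = 0.0488). The first model rat was far the highest in these genes. Genes of quiescent stellate cells moved both ways in edgeR, with 2 that rose and 1 that fell among 18, beside 6.86% and 1.01% of all genes tested. Their median was -0.27, and 4 were higher and 4 lower at an unadjusted p under 0.05. DESeq2 called 3 up and 3 down, and limma voom 3 up and 8 down.

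Of the genes that mark scar-associated macrophages, 9 of 24 rose, and 10 without the first model rat. Gpnmb was at 3.86, 6.51 and 1.74 CPM in the normal rats and at 1179, 40.3 and 69 in the model rats (log2 fold change 6.72 ± 1.48, adjusted p = 0.0374). Without the first model rat, far above the others, its log2 fold change was 3.71 (adjusted p = 0.00727). Trem2 was at 0, 0.199 and 0.607 CPM against 111, 8.17 and 7.68 (log2 fold change 7.29 ± 1.48, or 4.84 without M1, adjusted p = 0.0309). Fabp4, a fatty acid carrier of macrophages, fat and capillaries, was at 2.14, 0.465 and 1.65 CPM against 424, 63.9 and 8.12 (log2 fold change 6.88 ± 1.47, or 4.69 without M1, adjusted p = 0.0345). As for every called gene, model rats and normal rats did not overlap for these genes. The third model rat was above the second in Gpnmb and below it in Trem2 and Fabp4.

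Kupffer cell genes, which mark the resident macrophages, gave 0 calls in edgeR among 19 tested. At an unadjusted p under 0.05, 6 were higher and 3 lower, DESeq2 called 2 up and 2 down, and limma voom 1 up and 7 down. Their median difference from the normal mean was 1.21, -0.22 and -0.25 on the log2 scale in the model rats, so that only the first model rat was above 0. T and NK cell genes also gave 0 calls in edgeR among 21. With an unadjusted p under 0.05 2 were higher and 0 lower, DESeq2 called 2 up and limma voom 1 up and 1 down. B and plasma cell genes gave 1 call among 15. That share is near the 6.86% of all genes tested. It was Cd37, a tetraspanin of B cells and other white cells, at 7.98, 7.24 and 10.5 CPM against 49.8, 22.9 and 22 (log2 fold change 1.88, adjusted p = 0.0296).

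Of the neutrophil and mast cell genes 11 of 17 rose, and 10 without the first model rat. Tpsb2, a mast cell tryptase, was at 0.257, 0.199 and 0.0868 CPM in the normal rats and at 4.19, 12.2 and 8.85 in the model rats (log2 fold change 5.46 ± 0.63, adjusted p = 0.00925). Camp, the cathelicidin of neutrophil granules, was at 0, 0.133 and 0.174 CPM against 0.978, 4.97 and 6.37 (log2 fold change 5.18, adjusted p = 0.0281). In both genes the first model rat was the lowest of the model rats and still above all normal rats. Summed over the 5 mast cell markers, the level was 7.55, 6.84 and 6.25 CPM in the normal rats and 24.1, 35.3 and 49.5 in the model rats. Cybb, the oxidase chain of phagocytes, was highest in the first model rat, at 25.3, 18.5 and 23.5 CPM against 187, 59.1 and 56.9 (log2 fold change 2.17, or 1.35 without M1, adjusted p = 0.04).

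MHC class II genes, which present antigen on dendritic cells, macrophages and B cells, gave 0 calls in edgeR among 13 with all 6 livers, and 7 rose without the first model rat. DESeq2 called 4 and limma voom 10 up, and 11 were higher at an unadjusted p under 0.05. Cd74, the invariant chain, was at 459, 254 and 311 CPM in the normal rats and at 337, 1007 and 999 in the model rats. RT1-Da, a class II chain, was at 162, 91.8 and 107 CPM against 127, 435 and 379. In both genes the first model rat lay within the normal range in CPM and the other model rats above it, while as shares of all reads every model rat was above every normal rat. Interferon-stimulated genes gave 2 calls in edgeR among 30, a share near the 6.86% of all genes tested. At an unadjusted p under 0.05 8 were higher and 1 lower, beside 18.7% and 10.2% of all genes tested. DESeq2 called 5 up and 1 down, and limma voom 7 up and 1 down. The 2 called in edgeR, Oasl and Oasl2, encode antiviral proteins. Oasl was at 3.6, 2.19 and 3.38 CPM against 10.2, 18 and 11 (log2 fold change 2.10, adjusted p = 0.0208). Oasl2 was at 4.29, 3.32 and 4.6 CPM against 14.9, 11.2 and 13.1 (log2 fold change 1.68, adjusted p = 0.0198).

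Of 33 genes of chemokines and their receptors 9 rose, with a median of 1.08. Ccl2, which draws monocytes, was at 0.686, 0.332 and 1.04 CPM in the normal and 21.9, 3.34 and 4.32 in the model rats (log2 fold change 3.86 ± 0.87, or 2.47 without M1, adjusted p = 0.0398). Ccl21, which guides lymphocytes and dendritic cells into lymph vessels, was at 7.98, 7.11 and 15.4 CPM against 289, 799.6 and 99.5 (log2 fold change 5.29 ± 0.83, adjusted p = 0.0153), highest in the second model rat. Cxcl6, a neutrophil chemokine, had 3 counts over the normal rats and 265, 141 and 130 in the model rats, a ratio over the groups of 137 with a 95% counting interval from 46.6 to 666 (adjusted p = 0.00742). Cxcl3, of the same kind, had 0 counts in the normal rats and 124, 13 and 11 in the model rats. Against a floor of 3 counts over the normal group it was at least 37.8-fold higher, and most of its counts came from the first model rat. Ccl5, a T cell chemokine, did not pass (log2 fold change -0.63, adjusted p = 0.272).

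Bile duct genes were high in all 3 model rats. All 7 cholangiocyte markers tested rose, with and without the first model rat, and their summed level was 26.5, 18 and 22.4 CPM in the normal rats and 191, 181 and 110.3 in the model rats. Krt7, a keratin of bile ducts, had counts of 1, 0 and 2 in the normal rats and 599, 148 and 115 in the model rats, a ratio of 220 with a 95% counting interval from 75.1 to 1070 (adjusted p = 0.00925). Cftr, the chloride channel of duct cells, was at 1.12, 0.531 and 0.954 CPM in the normal rats and at 12, 23.8 and 13.5 in the model rats (log2 fold change 4.25 ± 0.45, adjusted p = 0.00871). The second model rat was the highest in Cftr and the first in Krt7. Cldn4, a tight junction protein, was at 0.257, 0.199 and 0.694 CPM against 20.8, 12.7 and 10.8 (log2 fold change 5.27, adjusted p = 0.00871). Aqp1, the water channel of ducts and capillaries, was at 8.07, 15.4 and 11.7 CPM against 101, 67.1 and 43 (log2 fold change 2.58, adjusted p = 0.0139). The wider list of biliary and ductular genes had 13 that rose among 23, with median differences of 2.54, 2.55 and 1.91 in the model rats. Krt8, which hepatocytes share with ducts, did not pass (log2 fold change 0.69, adjusted p = 0.29).

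Genes of fetal and preneoplastic liver held 9 that rose and 1 that fell among 17 tested. Gpc3, a surface proteoglycan of fetal liver and liver tumours, was at 1.12, 0.996 and 0.781 CPM in the normal rats and at 10.9, 15.2 and 16 in the model rats (log2 fold change 3.85 ± 0.35, adjusted p = 0.00742), and the first model rat was the lowest of the model rats. Dlk1, a Notch-like protein of hepatoblasts, had counts of 1, 1 and 0 in the normal rats and 87, 205 and 55 in the model rats, a ratio of 133 with a 95% counting interval from 36.5 to 1100 (adjusted p = 0.0116). Prom1, the stem and duct cell marker CD133, was at 0.944, 1.73 and 0.26 CPM against 15.1, 12.5 and 8.34 (log2 fold change 3.58, adjusted p = 0.0182). No normal rat reached the lowest model rat in these genes. The fall was that of Igf2bp3, an RNA-binding protein of fetal tissues, from 6.86, 8.9 and 5.55 CPM to 1.07, 2.18 and 1.76 (log2 fold change -2.10, adjusted p = 0.0293). Gstp1, the placental glutathione transferase that marks preneoplastic foci in rat liver, did not pass (log2 fold change 1.81, adjusted p = 0.0854).

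Of 22 integrin genes tested, 7 rose and 1 fell. Itgb6, the epithelial chain of an integrin that activates TGF-beta, was at 0.686, 0.797 and 0.781 CPM in the normal rats and at 9.08, 17.9 and 9.07 in the model rats (log2 fold change 3.97 ± 0.43, adjusted p = 0.00871). Itga2b, the platelet chain, fell from 27.8, 23.2 and 37.7 CPM to 7.45, 7.15 and 14.6 (log2 fold change -1.61, adjusted p = 0.0369). Of the S100 proteins, annexins and galectins 15 of 26 rose. Lgals3, a galectin of macrophages and ducts, was at 15.2, 6.51 and 13.1 CPM against 889, 80.5 and 48.4 (log2 fold change 4.87, or 2.47 without M1, adjusted p = 0.0447). Anxa2, a membrane-binding annexin, was at 23.4, 12.9 and 12.7 CPM against 347, 113 and 47.3 (log2 fold change 3.37, or 2.28 without M1, adjusted p = 0.0342). The first model rat was far the highest in both. Of 29 endothelial genes 1 rose in edgeR, a smaller share than the 6.86% of all genes tested. At an unadjusted p under 0.05 11 of them were higher and 3 lower, beside 18.7% and 10.2% of all genes tested. DESeq2 called 7 of them up and 2 down, and limma voom 6 up and 8 down. Msln, the mesothelin of the cells that cover the liver, was at 2.06, 1.46 and 0.434 CPM against 31.6, 81.6 and 21.7 (log2 fold change 5.08, adjusted p = 0.0119). Wt1, a transcription factor of the same cells, was at 0.343, 0.266 and 0.434 CPM against 9.87, 2.52 and 3.59 (log2 fold change 3.93, or 3.10 without M1, adjusted p = 0.0201).

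Cell cycle genes were ordered between the model rats, with median differences of 3.28, 1.92 and 0.63. Of 55 tested, 10 rose with all 6 livers and 5 without the first model rat, while 40 were higher at an unadjusted p under 0.05 and 0 lower. Cdk1, the kinase that starts mitosis, was at 1.37, 1.66 and 0.434 CPM in the normal rats and at 43.7, 14.2 and 3.51 in the model rats (log2 fold change 4.12 ± 0.93, or 2.88 without M1, adjusted p = 0.0398). Prc1, a protein of the dividing spindle, was at 1.2, 0.93 and 0.26 CPM against 38.3, 10.1 and 2.49 (log2 fold change 4.39, or 2.94 without M1, adjusted p = 0.0423). Without the first model rat Prc1 had an adjusted p of 0.0552. Ccnd1, cyclin D1, was highest in the second model rat, at 109.6, 34.9 and 28.5 CPM against 92.8, 247 and 115, and its groups overlapped.

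**Figure D5:**
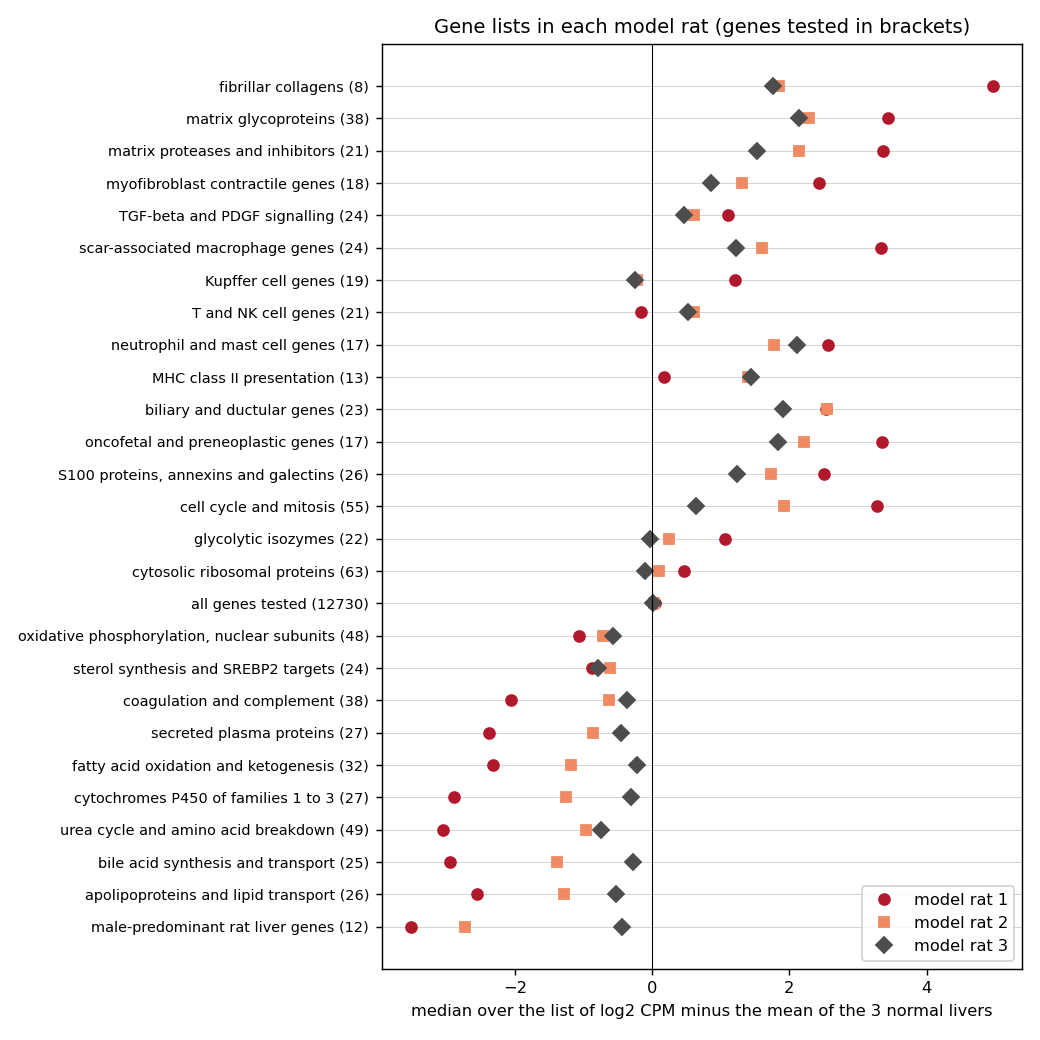
Median over each gene list of a model rat's log2 CPM minus the mean of the 3 normal livers (horizontal axis), for 26 lists and all genes tested (vertical axis), with a circle, square and diamond for the first, the second and the third model rat. Scar matrix, scar-associated macrophage and cell cycle lists lie to the right of 0 and most hepatocyte lists to the left with the first model rat outermost, while the 3 rats lie closer together for the biliary and sterol lists.

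Genes of hepatocyte function were lower as lists, yet few passed the test. Summed over the 10 hepatocyte markers, the level was 183672, 196753 and 164689 CPM in the normal rats and 43429, 122970 and 134209 in the model rats, and the groups did not overlap. As shares of all reads these markers took 15%, 16.4% and 13% in the normal rats and 7.07%, 13.7% and 13.6% in the model rats, so that only M1 was below the normal range. edgeR called 0 of these markers, 0 had an unadjusted p under 0.05, and DESeq2 and limma voom called 3 and 1 down. Alb took 7.6%, 9.06% and 6.11% of all reads in the normal rats and 3.46%, 6.56% and 7.67% in the model rats. Only the first model rat was below the normal range by that measure. In CPM after TMM scaling Alb was at 93020, 108849 and 77447 in the normal and 21217, 58741 and 75428 in the model rats (log2 fold change -0.85, adjusted p = 0.661). Apoe, the carrier of lipoprotein remnants that macrophages make too, took 2.96%, 2.72% and 3.48% of all reads in the normal rats and 1.23%, 1.83% and 2.06% in the model rats, below the normal range in every model rat.

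Plasma proteins and clotting and complement factors gave 0 calls in edgeR among 27 and 38 tested. Their medians were -1.003 and -0.86, or -0.64 and -0.53 without the first model rat. In 16 and 22 of them every model rat lay below every normal rat, beside 17.3% of all genes tested. In each list 1 member was lower and 1 higher at an unadjusted p under 0.05. DESeq2 called 4 and 2 down and 1 and 1 up, and limma voom 7 and 12 down and 1 and 0 up. C3, the central complement protein, was at 10801, 10361 and 11647 CPM in the normal rats and at 2559.9, 7727 and 7937 in the model rats, without overlap in CPM but with overlap as shares of all reads. Apolipoproteins had a median of -1.21, and edgeR called 0 of 26. Of these 9 were lower and 1 higher at an unadjusted p under 0.05, DESeq2 called 10 down and 1 up, and limma voom 14 down. Apoc3, an inhibitor of triglyceride clearance, was at 6959, 6557 and 9733 CPM against 705, 2609 and 3086 (log2 fold change -1.86, adjusted p = 0.141).

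Enzymes of amino acid breakdown and the urea cycle had a median of -1.27 over 49 genes (-0.86 without the first model rat). In 30 of these genes every model rat lay below every normal rat, beside 17.3% of all genes tested. DESeq2 and limma voom called 12 and 19 of the 49 down. In edgeR the 2 that fell were Hal and Gpt2, the mitochondrial alanine transaminase. Gpt2 was at 69.5, 129 and 78.3 CPM against 18, 37.7 and 39.5 (log2 fold change -1.54, adjusted p = 0.0496), and without the first model rat it did not pass (adjusted p = 0.0538). Pck1, the rate-limiting enzyme of glucose synthesis, was at 4883, 5462 and 3407 CPM in the normal rats and at 273, 2316 and 2450.2 in the model rats (log2 fold change -1.45, adjusted p = 0.28). Ass1 of the urea cycle was at 2602, 3408 and 2843 CPM against 182, 1904 and 1271 (log2 fold change -1.40, adjusted p = 0.279). The first model rat was far the lowest in both, and the other model rats also lay below the normal range.

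Drug-metabolising cytochromes P450 of families 1 to 3 gave 1 rise and 2 falls among 27, while DESeq2 and limma voom called 9 and 14 of them down. Cyp2f4 fell from 113, 82 and 129 CPM to 6.33, 28.6 and 25 (log2 fold change -2.44 ± 0.53, adjusted p = 0.0364). Cyp2d4 fell from 58.3, 95.9 and 86.1 CPM to 8.2, 14.1 and 32 (log2 fold change -2.15 ± 0.49, adjusted p = 0.0413). The rise was that of Cyp1b1, a P450 of stromal cells, at 0.772, 0.0664 and 0 CPM against 35.4, 6.47 and 2.71 (log2 fold change 5.76, or 4.03 without M1, adjusted p = 0.0418). It did not pass without the first model rat (adjusted p = 0.0551). Cyp2e1, the enzyme that activates CCl4, was at 3318, 4252 and 5257 CPM in the normal rats and at 628, 2324 and 4728 in the model rats. The third model rat lay inside its normal range, and the gene did not pass (log2 fold change -0.74, adjusted p = 0.548). Cyp2e1 is found around the central veins. Genes of the pericentral and of the periportal zone had medians of -0.97 and -1.31, with 1 and 2 that fell among 18 in each list. DESeq2 called 4 and 5 down and limma voom 10 and 5, and the difference between the zones was not tested.

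Of 12 genes that adult male rats express more than females, edgeR called 1 down, and 5 were lower at an unadjusted p under 0.05. DESeq2 called 4 and limma voom 11 down. The list had median differences of -3.52, -2.72 and -0.45 in the model rats. Their summed level was 18427, 16764 and 17675 CPM in the normal rats and 1395, 2713 and 12482 in the model rats. Mup5, a major urinary protein of the lipocalin family, was at 2743, 1142 and 2053 CPM in the normal rats and at 7.5, 0.272 and 214 in the model rats (log2 fold change -4.74 ± 1.83, adjusted p = 0.135). It ranked 19, 30 and 25 by FPKM in the normal rats and 2432, 11784 and 120 in the model rats. Its groups did not overlap, the second model rat was the lowest and the third the highest of its group, and the gene did not pass. Mup4, of the same family, had counts of 251, 281 and 146 in the normal rats and 0, 0 and 3 in the model rats and fell (adjusted p = 0.00871). The ratio of normal over model was 295 with a 95% counting interval from 101 to 1430. Reads of such near-identical family members can be split or lost in counting, so that the level of each is uncertain.

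Rup2, a urinary protein, was at 7989, 6206 and 6931 CPM in the normal rats and at 596, 1401 and 5405 in the model rats. Cyp4a2, a fatty acid hydroxylase, was at 1784, 3512 and 2967 CPM against 288, 375 and 2262. The first and the second model rat were low in both genes and the third was nearer to the normal rats. Stac3, an adaptor of calcium channels, and Aox3, an aldehyde oxidase, neither of them on the male list, had the order of the model rats seen in Mup5. Stac3 was at 169.8, 84.3 and 318 CPM against 0.559, 0.204 and 15.5 (log2 fold change -5.15, adjusted p = 0.0659). Aox3 was at 90.7, 61.6 and 43.6 CPM against 2.28, 0.136 and 10.1 (log2 fold change -3.98, adjusted p = 0.0541). Of the female-predominant list 1 of 6 rose. The gene was Trim24, a nuclear receptor cofactor, at 3.52, 3.65 and 4.16 CPM against 14.7, 15.4 and 6.44 (log2 fold change 1.69, adjusted p = 0.0418), and it did not pass without the first model rat (adjusted p = 0.0646).

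Respiratory chain genes had small differences of like size. Of 48 nuclear genes of oxidative phosphorylation, 41 were lower in every model rat than in every normal rat, beside 17.3% of all genes tested, and the median differences were -1.07, -0.72 and -0.58 in the model rats. Ndufb6, a subunit of complex I, fell from 58.9, 44.4 and 60.6 CPM to 22.9, 21.4 and 18.3 (log2 fold change -1.39 ± 0.23, adjusted p = 0.017). It was the 1 call of the list in edgeR, while 32 were lower at an unadjusted p under 0.05 and DESeq2 called 31 down. By library totals the list had a median of -0.15, where that of all genes was 0.65. As shares of all reads the list took 0.759%, 0.768% and 0.904% in the normal rats and 0.772%, 0.671% and 0.66% in the model rats. The groups overlapped by that measure, as they did for Ndufb6. Atp5b, the catalytic chain of ATP synthase, was at 1329, 1365 and 1461 CPM against 705, 954 and 952 (log2 fold change -0.67, adjusted p = 0.303). Cytosolic ribosomal proteins had a median of 0.15 over 63 genes with 1 fall. It was that of Rps21, from 19.8, 17.1 and 28.8 CPM to 8.43, 9.67 and 7.32 (log2 fold change -1.37, adjusted p = 0.0316).

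Sterol synthesis genes had medians of -0.88, -0.62 and -0.79 in the model rats, and edgeR called 0 of 24. With an unadjusted p under 0.05 10 were lower and 0 higher, and DESeq2 called 8 down and limma voom 9. Hmgcs1, the enzyme that opens the pathway, was at 521, 398 and 405 CPM in the normal rats and at 81.6, 111 and 237 in the model rats (log2 fold change -1.62, adjusted p = 0.0661), with no overlap. Fatty acid oxidation gave 1 rise among 32, with medians of -2.32, -1.18 and -0.22 in the model rats. edgeR called 0 down, 4 were lower at an unadjusted p under 0.05, and DESeq2 and limma voom called 3 and 21 down. In 14 of them every model rat lay below every normal rat, beside 17.3% of all genes tested. The rise was that of Acot1, a cytosolic thioesterase, from 1.03, 0.465 and 0.347 CPM to 7.17, 1.57 and 9.51 (log2 fold change 3.30, adjusted p = 0.0418, or 3.14 and 0.0582 without M1).

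Of 22 isozymes of glycolysis 5 rose. Pkm, the pyruvate kinase of most tissues other than liver, was at 14.2, 11 and 10.7 CPM in the normal rats and at 292, 40.8 and 34.5 in the model rats (log2 fold change 3.36 ± 0.83, or 1.64 without M1, adjusted p = 0.049). Ldhb, the heart-type lactate dehydrogenase, was at 5.83, 3.52 and 4.16 CPM against 46.2, 28.9 and 18.6 (log2 fold change 2.80, adjusted p = 0.012). Bile acid genes had a median of -1.26 and 1 that rose among 25, while DESeq2 and limma voom called 6 and 14 down. The rise was that of Abcc3, the export pump on the blood side of hepatocytes and duct cells, at 3.43, 1.73 and 4.68 CPM against 16.5, 19.9 and 8.41 (log2 fold change 2.19, adjusted p = 0.0359).

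Antioxidant genes gave 4 calls in edgeR among 35, all of them glutathione peroxidases that rose, beside 6.86% of all genes tested. At an unadjusted p under 0.05 6 of the list were higher and 4 lower. DESeq2 called 6 up and 5 down, and limma voom 5 up and 8 down. Every model rat lay above every normal rat in 5 of the list and below in 10, beside 20.9% and 17.3% of all genes tested. Gpx3, the plasma form, was at 23.6, 22.5 and 30.0 CPM in the normal rats and at 735, 205 and 229 in the model rats (log2 fold change 3.94 ± 0.58, or 3.08 without M1, adjusted p = 0.0135). Gpx2, the form of gut epithelium, had 3 counts over the normal rats and 500, 86 and 55 in the model rats, a ratio over the groups of 164 with a 95% counting interval from 55.8 to 796 (adjusted p = 0.0166). Gpx7 and Gpx8, of the endoplasmic reticulum, rose by 3.79 and 3.35 on the log2 scale, or 2.33 and 2.41 without M1. Hmox1, the heme oxygenase of macrophages and stressed cells, was at 46.5, 30.7 and 25.1 CPM in the normal rats and at 1131, 90.7 and 25.9 in the model rats. The third model rat lay inside the range of the normal rats, and the gene did not pass (log2 fold change 3.61, adjusted p = 0.107). Of the endoplasmic reticulum stress and heat shock list 1 rose and 2 fell among 30. Ddit3, a death factor of that stress, fell from 26.9, 34.7 and 22.6 CPM to 9.59, 14.5 and 13.8 (log2 fold change -1.15, adjusted p = 0.0427, or -1.01 and 0.0604 without M1). Creb3l1, which controls collagen secretion, rose from 5.41, 3.45 and 3.9 CPM to 36.5, 12.7 and 11 (log2 fold change 2.24, or 1.46 without M1, adjusted p = 0.04).

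Among liver transcription factors 1 of 25 fell in edgeR, 4 in DESeq2 and 9 in limma voom. Cebpb, a factor of the acute phase and of regeneration, was at 676, 819.8 and 634 CPM in the normal rats and at 223, 190.1 and 291 in the model rats (log2 fold change -1.60 ± 0.36, adjusted p = 0.0398), lowest in the second. Of p53 targets, apoptosis genes and kinase inhibitors 2 rose and 1 fell among 28, beside 6.86% and 1.01% of all genes tested. Sesn2, a stress gene that restrains mTOR, fell from 87.5, 78.4 and 147 CPM to 24.6, 25.8 and 41.4 (log2 fold change -1.77, adjusted p = 0.0283). Cdkn2c, an inhibitor of the cell cycle kinases, rose from 3, 1.59 and 2.95 CPM to 13.2, 12.5 and 9.29 (log2 fold change 2.21, adjusted p = 0.0173). Tnfrsf12a, the receptor of TWEAK on progenitor and injured cells, rose from 4.12, 5.31 and 6.16 CPM to 25.2, 39.8 and 11 (log2 fold change 2.28, adjusted p = 0.0309). Of the NF-kappaB and inflammatory list 2 of 30 rose in edgeR, a share near that of all genes. At an unadjusted p under 0.05 11 of its genes were higher and 2 lower, beside 18.7% and 10.2% of all genes tested. DESeq2 called 8 of them up and 1 down, and limma voom 9 up and 3 down. Ptgs2, the inducible cyclooxygenase, was at 0.0858, 0.199 and 0.0868 CPM against 5.59, 2.72 and 2.49 (log2 fold change 4.72, adjusted p = 0.012). Relb, a subunit of the noncanonical complex, was at 5.23, 5.18 and 6.42 CPM against 16.8, 16.2 and 11.3 (log2 fold change 1.40, adjusted p = 0.0309).

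The PI3K, AKT and mTOR list gave 0 calls in edgeR among 28. Its median was -0.11 and turned to 0.50 by library totals. At an unadjusted p under 0.05 4 of its genes were higher and 0 lower, DESeq2 called 3 up and limma voom 2 up and 2 down. Glycerolipid and phospholipid enzymes also gave 0 calls in edgeR among 50. Their median was -0.10 and turned to 0.51 by library totals. At an unadjusted p under 0.05 13 were higher and 8 lower, DESeq2 called 10 up and 8 down, and limma voom 8 up and 12 down. Acute phase proteins, with a median of -0.47 that turned to 0.03 by library totals, gave 0 calls in edgeR among 19, 2 higher and 0 lower at an unadjusted p under 0.05, 2 up in DESeq2, and 3 up and 1 down in limma voom.

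Of the remaining metabolic lists, conjugation enzymes had 1 that rose and 1 that fell among 34, with a median of -0.99, and DESeq2 and limma voom called 8 and 10 of them down. Genes of the methionine and one-carbon cycle had 1 that rose among 19, with a median of -1.05, and DESeq2 and limma voom called 5 and 4 of them down. Gluconeogenesis and glycogen genes, with a median of -1.27, gave 0 calls in edgeR among 15, 6 lower at an unadjusted p under 0.05, and 6 and 9 down in DESeq2 and limma voom. Fatty acid synthesis, with a median of -0.71, gave 0 calls in edgeR among 15, 1 higher and 3 lower at an unadjusted p under 0.05, and 2 and 3 down and 1 up in DESeq2 and limma voom. The fatty acid hydroxylases of P450 family 4, with a median of -0.86, gave 0 calls in edgeR among 11, 3 lower at an unadjusted p under 0.05, and 1 and 5 down in DESeq2 and limma voom.

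Of the IGF and growth hormone axis 2 of 18 rose, of circadian clock genes 1 of 17, of iron handling genes 1 of 20 and of erythroid genes 1 of 6. Of all genes tested 6.86% rose. edgeR called 0 members of these lists down. At an unadjusted p under 0.05 3 members of the IGF axis, 1 of the clock list, 1 of the iron list and 0 of the erythroid list were lower. DESeq2 called 2 members of the IGF axis and 1 of the iron list down, and limma voom 3 and 6. Neither called a member of the clock or erythroid list down. Reference genes gave 0 calls in edgeR among 13, with 3 higher and 0 lower at an unadjusted p under 0.05, 2 up in DESeq2 and 1 up in limma voom.

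Genes of the proteins and transcripts followed by other assays on these rats were looked up as well. Of 23 tested, 3 rose in edgeR, namely Col1a1, Col3a1 and Ccl2, beside 6.86% of all genes tested. The other 20 had log2 fold changes from -0.85 to 2.84 and adjusted p-values of 0.0572 or more in that fit. Among these, Acta2 passed in DESeq2 and limma voom, as given above, and which of the others passed in those fits is not listed here. Il6, an inflammatory cytokine, did not pass the filter on low counts, with counts of 2, 0 and 0 in the normal rats and 12, 1 and 0 in the model rats. Il10, which restrains inflammation, had counts of 0, 1 and 2 and 21, 2 and 5 and did not pass that filter either.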

How the data were processed

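Poly(A) RNA of 9 rat livers was sequenced. The study's methods name Trimmomatic and Cutadapt for trimming, STAR for mapping to hg19 and HTSeq-count for counting, while the submitters' processing notes name mm9 and DESeq2 and the symbols are those of the rat, so that the build is unsettled. The values deposited by the authors are raw counts of reads for each gene, not normalized, and FPKM values, used here for ranks within a liver. The deposited tables also hold normalized values, log2 fold changes and p-values of the authors' own comparison, none of which were used.

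Here the 6 normal and model libraries were fitted with edgeR 4.0.16 in R 4.3.3 (filterByExpr, TMM, quasi-likelihood test on the group, Benjamini-Hochberg adjustment). The standard error of a log2 fold change was that change over the root of its F statistic. CPM are scaled by TMM, and log2 CPM carry a prior count of 2. The fit was checked on simulated data. DESeq2 1.42.0, limma 3.58.1 (voom with sample quality weights), other scalings, filters and fits, and the fit without each library are given as alternatives. The smallest two-sided p that an exact permutation test of 3 against 3 can give is 0.1, so that none was used for single values.

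Gene lists (58) and marker lists (11) were matched by symbol or RefSeq synonym. The comparison, its members and the lists were chosen with earlier results of these data known. Named genes are the 12 largest rises and falls among calls at a mean log2 CPM of at least 3 without overlap, the 6 smallest p in each direction, up to 4 called members of each list in each direction with its most counted member or, where none was called, the 2 most counted, genes of the study's assays and the 8 largest rises and falls of the model rat nearest the normal livers. Intervals use the exact binomial method at 0.95 and, like the floor of 3 counts, cover counting error only. Depth was 13156735 to 18090405 counted reads per liver.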

Additional observations from a re-analysis of the deposited data

How the results depend on the processing

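The 1002 calls at an adjusted p under 0.05 became 1980 by library totals, 1757 with all 9 livers in the fit, 2714 in DESeq2 and 3433 in limma voom, and ranged from 0 to 2537 when 1 liver was left out. The cause was not tested, and a fit without a liver has fewer samples. Of the 1002 genes, 923, 978, 992 and 998 were also called by library totals, with all 9 livers, in DESeq2 and in limma voom. Other scalings, filters and fits gave 959 to 1215 calls. With a log2 fold change beyond 1 and a p under 0.05 before adjustment 2818 genes were called, and 2061 to 3917 when 1 liver was left out. None of the called named genes changed sign under any alternative, which was likely in advance because their groups did not overlap in CPM. Of the named genes not called, Col18a1 and Fn1 turned to log2 fold changes of 0.25 and 0.35 by library totals. A replicate block in the fit gave 1216 calls, 994 up and 222 down, of which 850 were among the 1002. The deviations of livers with the same number correlated at 0.21, -0.06 and -0.05, and those of the second normal and the third model rat at 0.198. Correlations of deviations from means of 3 livers depend on each other, so that they cannot decide whether the numbers pair the livers. Not every liver correlated best with its own number, and whether a call lost under the block is a weaker effect was not tested. With 3 rats a group, depth of 13156735 to 18090405 reads limits genes of few counts, such as those given above by their counts.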

Other observations

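A few genes not described above met the naming rules too. Rnd2, a small GTPase that acts on the cytoskeleton, was among the falls with the smallest p, at 53.3, 65.2 and 65.1 CPM in the normal rats and 15.4, 17.8 and 23.6 in the model rats (log2 fold change -1.69, adjusted p = 0.0124). Bhlhe41, a repressor of the circadian clock, had 2 counts over the normal rats and 148, 10 and 13 in the model rats, a ratio over the groups of 65.5 with a 95% counting interval from 17.9 to 545 (adjusted p = 0.0483, or 0.0773 without the first model rat). Ccl7, a monocyte chemokine, had 1 count over the normal rats and 393, 13 and 22 in the model rats, a ratio of 328 with an interval from 58.5 to 13000 (adjusted p = 0.039). Igfbp7, a secreted binding protein of vessels and fibroblasts, was at 136, 82.1 and 110.2 CPM in the normal rats and 940.5, 474 and 265 in the model rats (log2 fold change 2.35, or 1.74 without the first model rat, adjusted p = 0.0383).

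Further members of the urinary protein family had the order of Mup5, lowest in the second model rat and highest in the third, and the same uncertainty of near-identical sequences. LOC259245 was at 2041, 963 and 1475 CPM in the normal rats and 12, 0.613 and 134 in the model rats (log2 fold change -4.93, adjusted p = 0.0888). LOC298111 was at 287, 153 and 186 CPM against 1.4, 0.204 and 29.3 (log2 fold change -4.35, adjusted p = 0.0947), and LOC100912565 at 4332, 2019 and 3798 CPM against 26.8, 2.31 and 483 (log2 fold change -4.31, adjusted p = 0.128). The mitochondrial transcript Mt-co1, named after its values were seen, took 3.78%, 4.51% and 5.68% of all reads in the normal rats and 2.95%, 6.48% and 5.61% in the model rats, with overlapping groups.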
